A study of Mus musculus with 12 samples.

Results

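The genes described here build the postsynaptic side of excitatory synapses and the adhesion bridge across the synaptic cleft. They comprise 35 mouse genes: 8 genes for membrane-associated guanylate kinases (MAGUKs) and their Lin7 and Cask partners, 10 of the Dlgap, Shank and Homer families, 4 for the subunits of calcium/calmodulin-dependent protein kinase II (CaMKII), 8 for neuroligins, neurexins and Lrrtm proteins, and 5 for scaffolds that signal to the spine's actin and small GTPases. The list was named gene by gene, by a rule that used no measured value, although earlier results of these data were known when it was drawn up. Each gene was represented by 1 probe set, the one with the highest mean signal over the 12 samples among those annotated to that gene alone. Such a probe set was found for 33 of the 35 genes, and Shank2 and Magi2 are named only. Of the 33, 31 lay above the filter on dim probe sets and were tested among 12600 genes, out of 18193 genes with a probe set of their own.

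RNA was measured on 12 Affymetrix arrays, which read each gene through sets of short probes, most of them near the 3′ end of the transcript. The samples form 4 groups of 3: NR3B knockout mice at postnatal day 5 (P5 KO), wild-type mice at day 5 (P5 WT), NR3B knockout mice on day 0 (P0 KO) and wild-type mice on day 0 (P0 WT). NR3B is the protein name of an NMDA receptor subunit, encoded by Grin3b. No source used here gives the strain, the design of the allele, the cells that lack the gene or any pooling of animals. Sample titles list brain, hindbrain and spinal cord as the tissue, whereas the descriptions name brain alone. The labels do not say that the samples of a group are separate animals, so p-values measure only the spread between these samples, part of which may be technical.

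At an excitatory synapse, NMDA and AMPA receptors are held opposite the release site by MAGUK proteins, whose binding domains grip the tails of receptors and adhesion molecules. Dlgap proteins tie the MAGUKs to Shank, and Shank and Homer form a deeper layer that reaches metabotropic glutamate receptors and internal calcium stores. CaMKII, activated by calcium entering through NMDA receptors, is among the most abundant proteins of this layer. Neuroligins and Lrrtm proteins on the postsynaptic cell bind presynaptic neurexins and help to organise both sides of the contact.

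The arrays fit their genotype labels. Signals for Grin3b were 48.5, 39.7 and 45.4 in P5 KO samples, against 273, 168 and 155 in P5 WT samples, and 31.4, 38.8 and 96.9 in P0 KO samples, against 353, 198 and 304 in P0 WT samples. Every KO sample was below every WT sample of its age. These signals are dim, under the level of the filter applied to tested genes, so the check rests on dim values. Lin7a and Lrrtm3 lie on the chromosome that carries Grin3b, and neither passed a test of genotype. Of the markers of body position, 6 Hox genes of hindbrain and spinal cord were all above the filter, while of 4 measured forebrain markers Emx1 and Tbr1 were below it and Emx2 and Neurod6 above it.

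Some libraries stood apart. In P0 WT sample 1 the probe sets for 18S ribosomal RNA averaged 5939, against 41474 to 90375 in the other 11 samples, and P0 WT sample 2 received the lowest weight of all when arrays were weighted by their fit (0.189, where the highest was 2.44). Xist, expressed from the inactive X chromosome of female cells, was at 13145 in P5 KO sample 2, 8984 and 16377 in P0 KO samples 1 and 2, and 4786 and 12012 in P0 WT samples 1 and 2, while it was at 294 to 581 in the other 7. The Y-linked Eif2s3y was at 4959 to 7366 in those 7 and at 5.07 to 190 in the 5 samples with high Xist. The 3 P5 WT samples were thus all of the second kind, against 1 of the 3 P0 WT samples. The KO groups were unbalanced too, with high Xist in P5 sample 2 and in P0 samples 1 and 2. Dlg3, Cask, Nlgn3, Iqsec2 and Cnksr2 are X-linked, and the part of this mixture in their differences was not tested beyond leaving out P0 WT samples 1 and 2. That fit does not remove the mixture from the KO differences between the ages.

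Within groups, the spread of log2 levels of the 31 genes was close to that of all genes. Their median SD was 0.145 in P5 KO, 0.125 in P5 WT, 0.236 in P0 KO and 0.221 in P0 WT samples, against 0.133, 0.119, 0.210 and 0.269 for all genes in the same groups. Probe set signals differ with probe sequence, so the genes are not ranked against each other. The chosen probe sets of the 31 genes lay between the 50.9th and the 98.0th percentile of all probe sets by mean level. The probe sets of Dlgap2 (38.3rd percentile) and Shank1 (35th percentile) fell under the filter, set at the 40th. Without a filter Dlgap2 had a difference of 0.19 ± 0.36 (SE) between P5 and P0 in KO and -0.60 ± 0.36 in WT, and Shank1 had -0.40 ± 0.35 in KO and -0.070 ± 0.35 in WT.

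**Figure D1:**
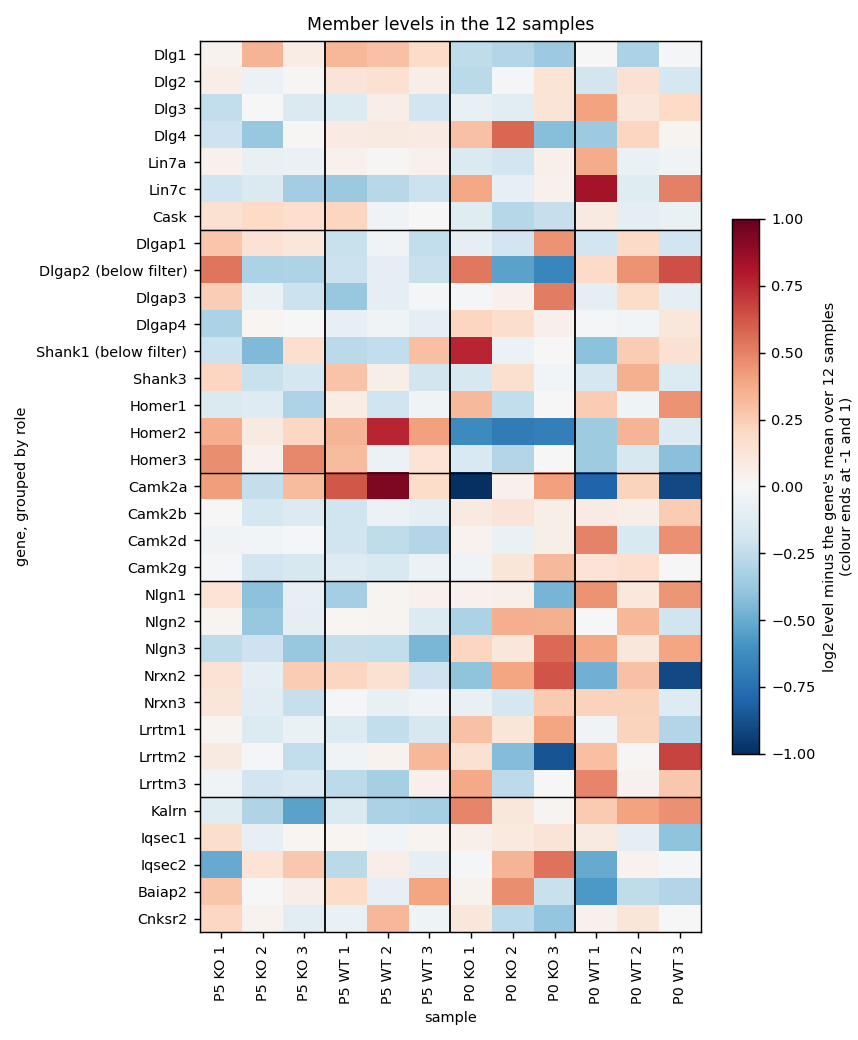
Levels of the 33 measured genes by sample, as log2(signal + 16) after quantile normalization minus each gene's mean over the 12 samples (colour), with genes in rows by role and samples in columns in the order P5 KO, P5 WT, P0 KO and P0 WT. Homer2 is lowest in the 3 P0 KO samples, where its signal was 4715 to 5028, and Nlgn3 and Kalrn differ between the ages in both genotypes.

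The first pair of comparisons asked how the genes differed between day 5 and day 0, within each genotype. Homer2 rose, and the adhesion protein gene Nlgn3 and the spine exchange factor gene Kalrn fell, in both genotypes. Dlg1 and Cask rose past the threshold in KO samples, and Lin7c and Camk2d fell past it in WT samples. Most of the list did not pass: 26 of 31 genes in KO and 26 of 31 in WT were above an adjusted p of 0.05 (limma, Benjamini-Hochberg over 12600 genes). These are bulk samples, in which fewer cells of a type and less RNA per cell cannot be told apart.

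In KO samples 5 of the 31 genes passed (16.1%), against a background of 10.5% of all genes, with 3 higher (background 5.5%) and 2 lower (background 4.95%). In WT samples 5 of 31 passed (16.1%) against a background of 19.3%, with 1 higher (background 10.8%) and 4 lower (background 8.52%). With 31 genes, these shares are not far from those of all genes. Samples of the 2 ages did not overlap on the log2 scale for 10 of the 31 genes in KO (background 33.3%) and 13 of 31 in WT (background 35.3%). The median log2 difference of the list was -0.080 in KO, against -0.028 over all genes, and -0.097 in WT, against 0.029 over all genes. At an unadjusted p under 0.05 the counts were 8 in KO (background 25.1%) and 13 in WT (background 36.1%).

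The KO and WT differences rest on separate samples. Across the 31 genes their Pearson correlation was 0.65 and 22 genes had the same sign (71.0%), against 0.75 and 73.5% across all genes tested. Genes are not independent replicates, and these values only describe the list. A test of whether the age difference itself depended on genotype passed for 0 of 31 genes (background 0%), so calls in a single genotype do not show that the genotypes differ.

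**Figure D2:**
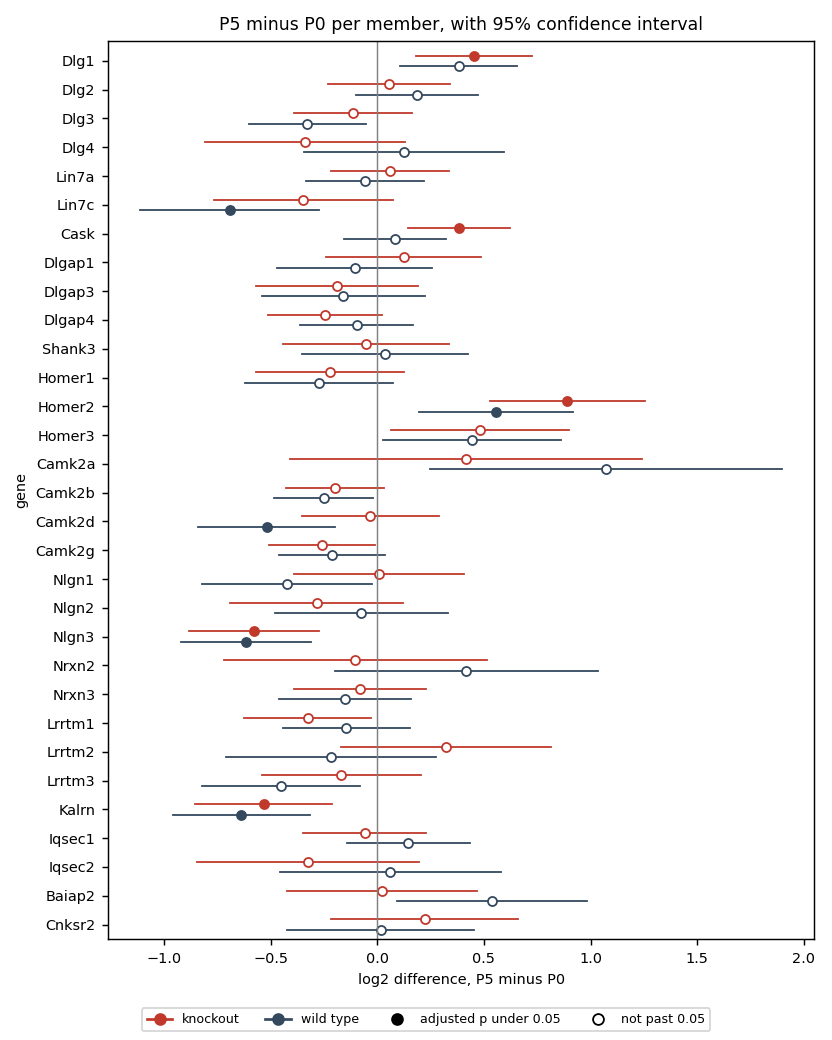
Difference in log2 level between P5 and P0 for the 31 tested genes in KO and in WT samples, with 95% confidence intervals, grouped by role. Filled symbols mark an adjusted p under 0.05, and Homer2 is farthest to the right among the filled symbols, at 0.89 in KO and 0.56 in WT.

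Among the Dlgap, Shank and Homer genes, Homer2 alone of the 7 tested passed, and it did so in both genotypes. Homer2 encodes a long Homer protein that crosslinks Shank with metabotropic glutamate receptors and inositol trisphosphate receptors. Its probe set (1424367_a_at) had signals of 10065, 8378 and 8976 in P5 KO samples, against 5028, 4715 and 4798 in P0 KO samples, and 9842, 13232 and 10389.5 in P5 WT samples, against 6325, 9896 and 7304 in P0 WT samples. In KO the 2 ages were far apart and did not overlap, while in WT the P0 sample 2 was within the P5 range on the deposited scale and just below it after normalization. The level averaged 9139.6 ± 855 in P5 KO and 4847 ± 162 in P0 KO samples (SD, n = 3 each), a 1.86-fold rise, or 0.89 (SE 0.17, adjusted p = 0.00449) in log2. In WT it averaged 11154 ± 1820.0 at P5 and 7842 ± 1845 at P0, a log2 difference of 0.56 (SE 0.17, adjusted p = 0.0347). The KO call held with each of the 12 samples left out in turn, at adjusted p from 3.99e-04 to 0.0260. The WT call was lost without P5 KO sample 3 and without any 1 of the P5 WT samples. It was also lost without P0 WT sample 1 or 3 (limma, adjusted p from 0.0506 to 0.143 over all these fits). Without P0 WT sample 2, the highest of its group, the difference was 0.75 (adjusted p = 0.00119), and 38.3% of all genes passed in that fit.

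The other Homer genes did not pass. Homer3, whose protein is abundant in cerebellar Purkinje cells, had signals of 1139, 809 and 1108 in P5 KO samples, against 755, 660.4 and 694 in P0 KO samples, and 1026, 793 and 889 in P5 WT samples, against 646, 698 and 609.8 in P0 WT samples. All P5 samples were above all P0 samples of their genotype, with log2 differences of 0.48 (SE 0.19, adjusted p = 0.137) in KO and 0.44 (SE 0.19, adjusted p = 0.117) in WT. Homer1, which gives long crosslinking and short activity-induced forms, had signals of 7034, 7046 and 6137 in P5 KO samples, against 9538, 6433 and 7816 in P0 KO samples, and 8049, 6722 and 7609.7 in P5 WT samples, against 9339, 7362 and 10585 in P0 WT samples. Its groups overlapped at -0.22 (SE 0.16, adjusted p = 0.437) in KO and -0.27 (SE 0.16, adjusted p = 0.24) in WT, both below 0.

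Dlgap proteins bind the guanylate kinase domain of MAGUKs on one side and Shank on the other. Dlgap3 had signals of 3022, 2381 and 2108 in P5 KO samples, against 2509, 2499 and 3415 in P0 KO samples, and 1953, 2370.0 and 2517 in P5 WT samples, against 2429.6, 2744 and 2413 in P0 WT samples, and the ages overlapped in both genotypes. Its log2 differences were -0.19 (SE 0.18, adjusted p = 0.57) in KO and -0.16 (SE 0.18, adjusted p = 0.545) in WT. Dlgap1 differed by 0.12 in KO and -0.11 in WT, with overlap in both. For Dlgap4, P5 samples were below P0 samples in both genotypes after normalization and overlapped them on the deposited scale, with differences of -0.25 (SE 0.12, adjusted p = 0.239) in KO and -0.10 (SE 0.12, adjusted p = 0.605) in WT. Shank3, the scaffold that links Dlgap to Homer and the actin skeleton, differed by -0.052 (SE 0.18, adjusted p = 0.897) in KO and 0.036 (SE 0.18, adjusted p = 0.905) in WT.

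Promoter sequences are given for Homer2 and Kalrn, the pair with a call in both genotypes and an entry in the RefSeq promoter table, so that the upstream DNA of the gene that rose can be read beside that of a gene that fell. Each run is the 250 bases before the annotated start on the gene's strand, GRCm38.p6, minus strand, at chr7:81706926-81707175 for the first of 2 annotated Homer2 starts and chr16:34514028-34514277 for Kalrn. Capitals mark matches to the GC box GGGCGG on either strand, some of which overlap.
Homer2: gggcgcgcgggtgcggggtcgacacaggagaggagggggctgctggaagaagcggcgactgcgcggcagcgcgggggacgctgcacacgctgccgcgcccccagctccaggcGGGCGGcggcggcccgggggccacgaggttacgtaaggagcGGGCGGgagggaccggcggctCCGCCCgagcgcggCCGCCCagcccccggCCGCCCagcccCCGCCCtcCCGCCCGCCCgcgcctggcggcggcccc
Kalrn: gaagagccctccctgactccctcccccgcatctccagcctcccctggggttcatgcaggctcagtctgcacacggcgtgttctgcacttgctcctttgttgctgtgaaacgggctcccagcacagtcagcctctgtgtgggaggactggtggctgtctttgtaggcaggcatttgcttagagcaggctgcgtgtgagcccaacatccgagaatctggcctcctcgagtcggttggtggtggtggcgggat
The Homer2 window is 83.2% G and C with 40 CpG dinucleotides and 8 GC-box matches, and the Kalrn window is 60.8% G and C with 9 CpG dinucleotides and 0 matches. The window at the second Homer2 start is 52.0% G and C with 3 CpG dinucleotides. A GC box occurs in 32.74% of the 32851 windows of this length in the table. Nlgn3 is named only.

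In the spine signalling group, Kalrn fell in both genotypes and the other 4 genes did not pass. Kalrn encodes kalirin, a guanine nucleotide exchange factor that activates Rac in dendritic spines. Its probe set (1440970_at) had signals of 4007, 3485 and 2927 in P5 KO samples, against 6013, 4560.4 and 4284 in P0 KO samples, and 3909, 3474 and 3463 in P5 WT samples, against 5309, 5598 and 6056 in P0 WT samples. No P5 sample reached a P0 sample of its genotype. The level averaged 3473 ± 541 at P5 and 4952 ± 929 at P0 in KO, a log2 difference of -0.53 (SE 0.15, adjusted p = 0.0367). In WT the averages were 3615 ± 254 at P5 and 5654 ± 376 at P0, a 1.56-fold fall, or -0.64 (SE 0.15, adjusted p = 0.0107). The WT call held with any 1 of the 12 samples left out (adjusted p from 0.00557 to 0.0473). The KO call was lost without P5 KO sample 2 or 3, without any 1 of the P5 WT samples and without P0 KO sample 1 or 2 (adjusted p from 0.0522 to 0.162).

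Baiap2 encodes a protein that couples Rac and Cdc42 to actin and bends the membrane. It had signals of 1222, 958 and 1002 in P5 KO samples, against 1047, 1318 and 724 in P0 KO samples, and 1133, 943 and 1296 in P5 WT samples, against 673, 788 and 808 in P0 WT samples. The ages overlapped in KO, at 0.022 (SE 0.21, adjusted p = 0.962), and did not overlap in WT, at 0.54 (SE 0.21, adjusted p = 0.0804), where the test was not passed. Iqsec1 and Iqsec2, exchange factors for Arf GTPases at the postsynaptic density, did not pass. For Iqsec1 the signals were 4705, 3877 and 4109 in P5 KO samples, against 4264, 4327 and 4424 in P0 KO samples, and 4220.0, 4077 and 4248 in P5 WT samples, against 4545, 3752 and 3206 in P0 WT samples, with log2 differences of -0.058 in KO and 0.14 in WT. Iqsec2 had signals of 622, 942 and 1035 in P5 KO samples, against 910.4, 1087 and 1127 in P0 KO samples, and 743, 936 and 821 in P5 WT samples, against 634, 864 and 885 in P0 WT samples, with -0.32 in KO and 0.062 in WT. Cnksr2, a scaffold between Ras signalling and the postsynaptic density, differed by 0.22 (SE 0.20, adjusted p = 0.556) in KO and 0.017 (SE 0.20, adjusted p = 0.966) in WT.

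**Figure D3:**
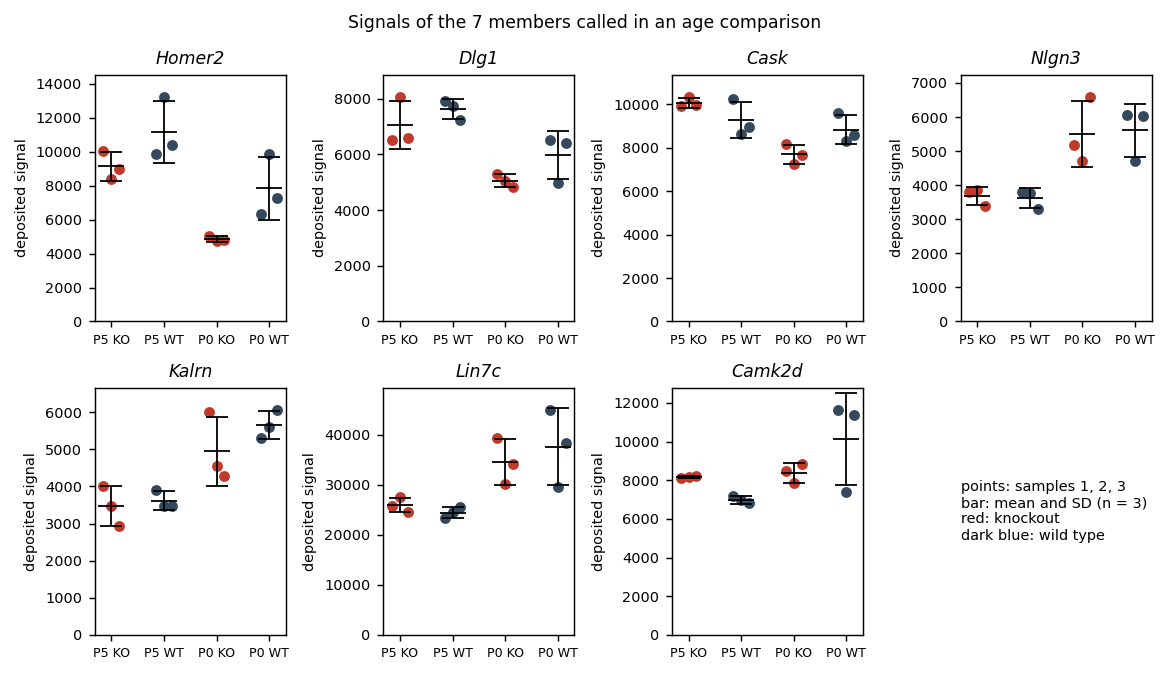
Deposited signals, on a linear axis from 0, of the 7 genes with a call in at least 1 age comparison, with a point per sample and the mean and SD of each group of 3, ordered P5 KO, P5 WT, P0 KO and P0 WT. Lin7c and Camk2d in P0 WT spread widely, with sample 2 lowest at 29573 and 7391.

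Of the 8 adhesion genes, Nlgn3 fell in both genotypes and the other 7 did not pass in either. Nlgn3 encodes neuroligin 3, found at excitatory and inhibitory synapses. Its probe set (1436135_at) had signals of 3791, 3865 and 3374 in P5 KO samples, against 5171, 4723 and 6588 in P0 KO samples, and 3811, 3779 and 3298 in P5 WT samples, against 6067, 4721 and 6039 in P0 WT samples. All P5 samples were below all P0 samples of their genotype, by 1.49-fold in KO, or -0.58 (SE 0.14, adjusted p = 0.0201) in log2, and by 1.53-fold in WT, or -0.62 (SE 0.14, adjusted p = 0.0102). The KO call was lost without any 1 of the P5 KO samples or without P0 KO sample 3 (adjusted p from 0.0524 to 0.0869), and the WT call without P5 WT sample 3 (adjusted p = 0.0527). Without P0 WT samples 1 and 2, which had high Xist, and of which sample 1 also had the lowest 18S signal and sample 2 the lowest weight, Nlgn3 differed by -0.71 (adjusted p = 0.0176). In that fit the lone sample is assumed to vary like the other groups. That lone sample, P0 WT sample 3, itself had the lowest 18S signal after sample 1, at 41474.

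Nlgn1, the neuroligin typical of excitatory synapses, had signals of 5251, 3575 and 4418 in P5 KO samples, against 4907, 4786 and 3279 in P0 KO samples, and 3772, 4874 and 4919 in P5 WT samples, against 6711, 5016 and 6607 in P0 WT samples. In WT the P5 samples were all below the P0 samples, at -0.42 (SE 0.18, adjusted p = 0.115), and in KO they overlapped, at 0.0082 (SE 0.18, adjusted p = 0.985). Nlgn2, the neuroligin of inhibitory synapses, differed by -0.28 (SE 0.19, adjusted p = 0.388) in KO and -0.074 (SE 0.19, adjusted p = 0.808) in WT.

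Lrrtm proteins are leucine-rich repeat proteins of the postsynaptic membrane. Lrrtm3 had signals of 3999, 3546 and 3578 in P5 KO samples, against 5249.9, 3312 and 3945 in P0 KO samples, and 3399, 3227 and 4251 in P5 WT samples, against 5885, 4063 and 5009 in P0 WT samples, overlapping in both genotypes, with log2 differences of -0.17 (SE 0.17, adjusted p = 0.607) in KO and -0.45 (SE 0.17, adjusted p = 0.0794) in WT. For Lrrtm1, all P5 KO samples were below all P0 KO samples, at -0.33 (SE 0.14, adjusted p = 0.157), and the WT difference was -0.15 (SE 0.14, adjusted p = 0.474). Lrrtm2 differed by 0.32 (SE 0.23, adjusted p = 0.423) in KO and -0.22 (SE 0.23, adjusted p = 0.521) in WT.

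The neurexins are the presynaptic partners of these proteins. Nrxn2 had signals of 6697, 5686 and 7115 in P5 KO samples, against 4561, 7827 and 9557 in P0 KO samples, and 6979, 6686 and 5287 in P5 WT samples, against 4479, 7286 and 3298 in P0 WT samples. Its P0 samples varied over more than the distance between the ages, and the differences were -0.10 (SE 0.29, adjusted p = 0.869) in KO and 0.42 (SE 0.29, adjusted p = 0.311) in WT. Without P0 WT sample 2, whose signal was the highest of its group, the WT difference was 0.74 (limma, adjusted p = 0.0305), past the threshold. Leaving out the highest P0 sample raises this difference by itself, and 38.3% of all genes passed in that fit. The gene is therefore not counted as called. Nrxn3 differed by -0.080 in KO and -0.15 in WT, and did not pass.

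Among the 7 MAGUK, Lin7 and Cask genes tested, 2 rose in KO and 1 fell in WT. Dlg1, which encodes a MAGUK that takes part in receptor trafficking as well as cell polarity, rose in KO samples, and Cask, a MAGUK with a kinase-like domain that binds neurexin, rose beside it. Signals for Dlg1 (1415691_at) were 6523, 8056 and 6574 in P5 KO samples, against 5283, 5048 and 4843 in P0 KO samples, and 7923, 7725 and 7221 in P5 WT samples, against 6526, 4985 and 6394 in P0 WT samples. No P5 sample overlapped a P0 sample of its genotype, and the log2 differences were 0.45 (SE 0.13, adjusted p = 0.0371) in KO and 0.38 (SE 0.13, adjusted p = 0.0502) in WT, the second just short of the threshold. Signals for Cask (1422518_at) were 9911, 10332 and 9959 in P5 KO samples, against 8149, 7264 and 7683 in P0 KO samples, and 10219, 8641 and 8940.3 in P5 WT samples, against 9579, 8286 and 8598 in P0 WT samples. The ages were separate in KO, at 0.38 (SE 0.11, adjusted p = 0.0422), and overlapped in WT, at 0.085 (SE 0.11, adjusted p = 0.615). Both KO calls were lost when any 1 of the P5 KO, P5 WT or P0 KO samples was left out, at adjusted p from 0.0551 to 0.167 for Dlg1 and from 0.0525 to 0.135 for Cask, and were kept without any 1 of the P0 WT samples.

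Lin7c encodes a small adaptor that joins Cask at synapses and sorts membrane proteins. It fell in WT, with signals (1450937_at) of 25637, 27507 and 24608 in P5 KO samples, against 39361, 30038 and 34176 in P0 KO samples, and 23295, 24436 and 25465 in P5 WT samples, against 44845, 29573 and 38224 in P0 WT samples. P5 samples were below P0 samples throughout, by 1.62-fold in WT, or -0.69 (SE 0.19, adjusted p = 0.0263) in log2, and by -0.35 (SE 0.19, adjusted p = 0.296) in KO, which did not pass. The WT call was lost without any 1 of the P5 WT samples and without P0 WT sample 1 or 3 (limma, adjusted p from 0.0605 to 0.0902). Without P0 WT sample 2, the lowest of its group, the difference was -0.95 (adjusted p = 2.94e-04), and 38.3% of all genes passed in that fit. Its relative Lin7a did not pass, at 0.060 in KO and -0.057 in WT.

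The remaining Dlg genes did not pass. Dlg3, the MAGUK known for early postnatal synapses, had signals of 4810.4, 5684 and 5048 in P5 KO samples, against 5357, 5139 and 6137 in P0 KO samples, and 5172, 5948 and 5016 in P5 WT samples, against 7685, 6064 and 6652 in P0 WT samples. In WT no P5 sample reached a P0 sample, at -0.33 (SE 0.13, adjusted p = 0.0852), and in KO they overlapped, at -0.11 (SE 0.13, adjusted p = 0.648). Dlg2, a close relative of Dlg4 that also clusters NMDA receptors, had signals of 6984, 6384 and 6602 in P5 KO samples, against 5481, 6465 and 7342 in P0 KO samples, and 7246, 7340.3 and 6902 in P5 WT samples, against 6027, 7268 and 6003 in P0 WT samples, with differences of 0.056 in KO and 0.19 in WT. Dlg4, the principal scaffold of mature excitatory synapses, differed by -0.34 (SE 0.22, adjusted p = 0.373) in KO and 0.13 (SE 0.22, adjusted p = 0.711) in WT.

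Of the 4 CaMKII genes, Camk2d fell in WT and no other call was made. Camk2d and Camk2g encode subunits found in many tissues. Camk2d (1422659_at) had signals of 8121, 8189.6 and 8215 in P5 KO samples, against 8468, 7838 and 8852 in P0 KO samples, and 7208, 6969.6 and 6799 in P5 WT samples, against 11622, 7391 and 11382 in P0 WT samples. P0 WT samples 1 and 3 were well above every other sample, P0 WT sample 2 was not, and the ages did not overlap in WT. The log2 difference was -0.52 (SE 0.15, adjusted p = 0.0291) in WT and -0.032 (SE 0.15, adjusted p = 0.927) in KO. The WT call was lost without any 1 of the P5 WT samples and without P0 WT sample 1 or 3 (limma, adjusted p from 0.0724 to 0.108). Without P0 WT sample 2, the lowest of its group, the WT difference was -0.72 (adjusted p = 1.84e-04), and 38.3% of all genes passed in that fit.

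Camk2a, the alpha subunit abundant in forebrain neurons, had signals of 2464, 1508 and 2201 in P5 KO samples, against 813, 1816 and 2241 in P0 KO samples, and 2806, 3476 and 2092 in P5 WT samples, against 1075, 2032 and 988 in P0 WT samples. Its difference in WT was the largest of the list, at 1.07 (SE 0.38, adjusted p = 0.0645), with a 95% interval of 0.25 to 1.90, and it did not pass. P5 WT samples were above the P0 WT samples by a small margin on the deposited scale and overlapped after normalization. Without P0 WT sample 2, the highest of its group, the WT difference was 1.43 (limma, adjusted p = 0.0086). Leaving out that sample raises the difference by itself, and 38.3% of all genes passed in that fit. In KO with all samples the difference was 0.42 (SE 0.38, adjusted p = 0.56). Camk2b, the beta subunit that binds actin, had signals of 7849.9, 6980.4 and 7088 in P5 KO samples, against 8359.7, 8546 and 8332 in P0 KO samples, and 6814, 7496 and 7409 in P5 WT samples, against 8478, 8168 and 9455 in P0 WT samples. Every P5 sample was below every P0 sample of its genotype, at -0.20 (SE 0.11, adjusted p = 0.278) in KO and -0.25 (SE 0.11, adjusted p = 0.11) in WT. Camk2g had signals of 15844, 14452 and 14662 in P5 KO samples, against 15536, 17942 and 21683 in P0 KO samples, and 14648, 14568 and 15511 in P5 WT samples, against 17092, 18930.1 and 15984 in P0 WT samples, which overlapped in KO and not in WT, with differences of -0.26 (SE 0.12, adjusted p = 0.177) in KO and -0.21 (SE 0.12, adjusted p = 0.197) in WT.

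The 33 genes are read by 102 probe sets, 87 of them above the filter, and 26 genes have several. Probe sets of a gene can lie in different transcript ends, and they often disagreed. For Lin7c all 4 were lower at P5 in WT, at -0.69, -0.77, -1.01 and -0.62. For Baiap2 all 4 were higher in WT at P5, from 0.36 to 1.01. The 3 Homer2 probe sets gave 0.89, 0.14 and 0.71 in KO, and 0.56, 0.24 and -0.29 in WT. The chosen Cask probe set stood alone at 0.38 in KO, where the other 3 gave -0.39, 0.10 and 0.11. The other above-filter probe set of Dlg1 gave 0.33 in KO. Those of Nlgn3 gave -0.42 and 0.017 in KO and -0.32 and -0.058 in WT. For Kalrn, 3 more probe sets above the filter were below 0 in both genotypes, while 1436066_at was above 0, at 0.76 in KO and 0.32 in WT, and 1442554_s_at gave 0.37 in KO and -0.42 in WT. The 5 further Camk2d probe sets above the filter gave -0.48 to 0.28 in KO and -1.10 to -0.14 in WT. The chosen Camk2a probe set gave 1.07 in WT, the other 2 above the filter gave 0.0089 and -0.11, and 1443876_at, under the filter, gave -1.27 (adjusted p = 0.0417 over 45037 probe sets).

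When all 45037 probe sets were tested without a filter, 3 of the 102 passed in KO (2.94%, background 3.5%) and 7 of 102 in WT (6.86%, background 5.81%). Those in KO were of Homer2, Nlgn3 and Lin7a (1456656_at, 0.90, adjusted p = 0.0455). Those in WT were of Nlgn3, Kalrn, Lin7c (1423322_at), Camk2a (1443876_at), Baiap2 (1435128_at) and Camk2d (1439168_at and 1459457_at). When the level of a gene was taken as the mean over its probe sets, Homer2 was the only call of the 31 genes in KO, at 0.58 (background 8.65%), and Baiap2 the only call in WT, at 0.63 (adjusted p = 0.023), against a background of 15%.

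**Figure D4:**
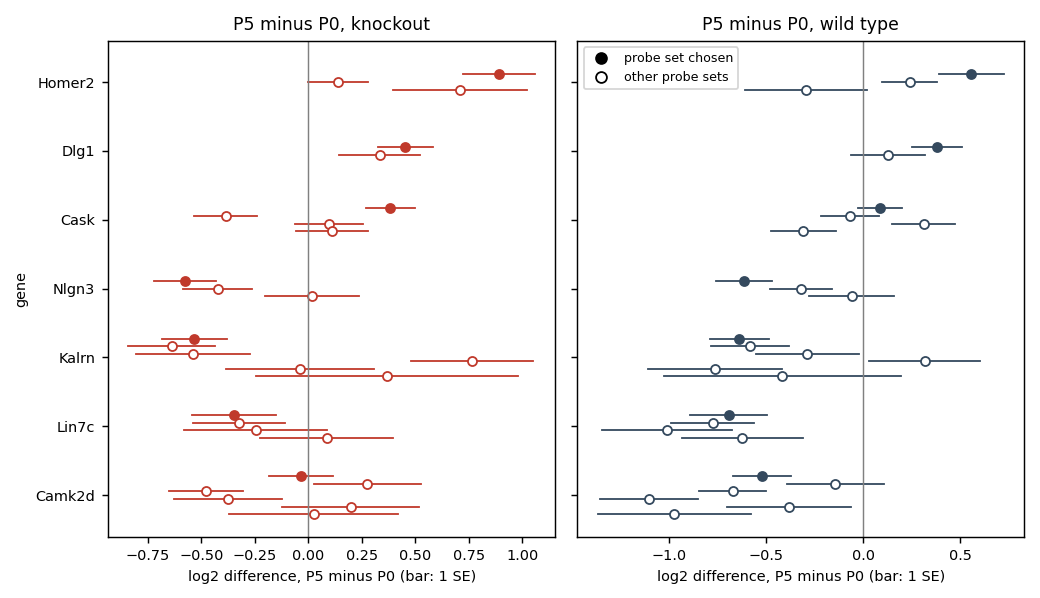
Difference in log2 level between P5 and P0 for every above-filter probe set of the 7 genes with a call in either genotype, with bars of 1 standard error, in KO and in WT samples. Filled symbols are the chosen probe sets, and open ones lie on both sides of 0 in KO for Kalrn, Cask, Camk2d, Lin7c and Nlgn3.

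The second pair of comparisons asked whether the knockout differed from the wild type at the same age. None of the 31 genes passed in any of them. At P5 the count was 0 of 31 (background 0.00794%), the lowest adjusted p was 0.9998, and 0 genes had an unadjusted p under 0.05 (background 1.84%). At P0 the count was 0 of 31 (background 0.0238%), with 5 genes at an unadjusted p under 0.05 (16.1%, background 16.1%) and the lowest adjusted p at 0.285. Averaged over ages it was 0 of 31 (background 0.0238%), with 3 at an unadjusted p under 0.05 (background 8.65%). For the interaction it was 0 of 31 with 1 at an unadjusted p under 0.05 (background 4.98%). These counts do not show that the genotypes were alike: the 95% intervals of single genes reached from -1.24 to 0.71 at P5 and from -1.20 to 1.19 at P0.

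Complete separation of KO from WT samples was also near the level of all genes. At P5 it held for 3 of 31 (background 12.9%), with Dlgap1 and Camk2d higher and Dlg4 lower in KO. At P0 it held for 4 of 31 (background 10.2%), with Baiap2 higher and Homer2, Nlgn1 and Cask lower in KO. At both ages in the same direction it held for 0 of 31 (background 0.976%). Between the genotype differences at P5 and at P0, which rest on separate samples, 18 of 31 genes kept their sign (58.1%), against 53.3% of all genes.

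The 5 genes with the smallest p in the average were Homer2, Lrrtm2, Lrrtm1, Dlgap1 and Nlgn1. Homer2 was lower in KO at both ages, by -0.29 (SE 0.17) at P5 and -0.62 (SE 0.17) at P0, where the KO samples (5028, 4715 and 4798) were all below the WT samples (6325, 9896 and 7304). Averaged over ages it was -0.45 (SE 0.12, adjusted p = 0.526), short of the threshold. The P0 KO samples also enter the age difference in KO above, so the pair of values is not independent. Lrrtm2 had signals of 8178, 7623 and 6358 in P5 KO samples, against 7428, 7821 and 9658 in P5 WT samples, and 8489, 5538 and 4081 in P0 KO samples, against 9524, 7620.5 and 12226 in P0 WT samples. The genotypes overlapped at both ages, and the average difference was -0.44 (SE 0.16, adjusted p = 0.574). Lrrtm1 had signals of 5115, 4517 and 4698 in P5 KO samples, against 4565, 4223 and 4506 in P5 WT samples, and 6075, 5298 and 6519 in P0 KO samples, against 5028, 5727 and 4173 in P0 WT samples, with an average of 0.21 (SE 0.10, adjusted p = 0.574). Its other probe sets, 1452624_at and 1437746_at, gave averages of -0.045 and -0.072, the other direction.

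Dlgap1 had signals of 5149.8, 4669 and 4520.2 in P5 KO samples, against 3659, 4153 and 3622 in P5 WT samples, and 3976, 3629 and 5738 in P0 KO samples, against 3846, 4735 and 3803 in P0 WT samples. KO samples were all above WT samples at P5 and overlapped them at P0, for an average of 0.23 (SE 0.12, adjusted p = 0.586). Taken as the mean over its probe sets, the gene had an average difference of -0.045 (adjusted p = 0.865), the other direction. For Nlgn1 the P0 KO signals (4907, 4786 and 3279) were all below the P0 WT signals (6711, 5016 and 6607), at -0.46 (SE 0.18, adjusted p = 0.29), and at P5 the difference was -0.028, with overlap.

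The smallest p for a genotype difference that depended on age belonged to Camk2d, Cask and Baiap2. By its chosen probe set, Camk2d was higher in KO at P5, where the groups did not overlap, by 0.23, and lower in KO at P0, where they did, by -0.26. The interaction was 0.49 (SE 0.21, adjusted p = 0.742). For Cask it was 0.30 (SE 0.16, adjusted p = 0.742), and for Baiap2 -0.52 (SE 0.29, adjusted p = 0.742), with opposite signs.

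**Figure D5:**
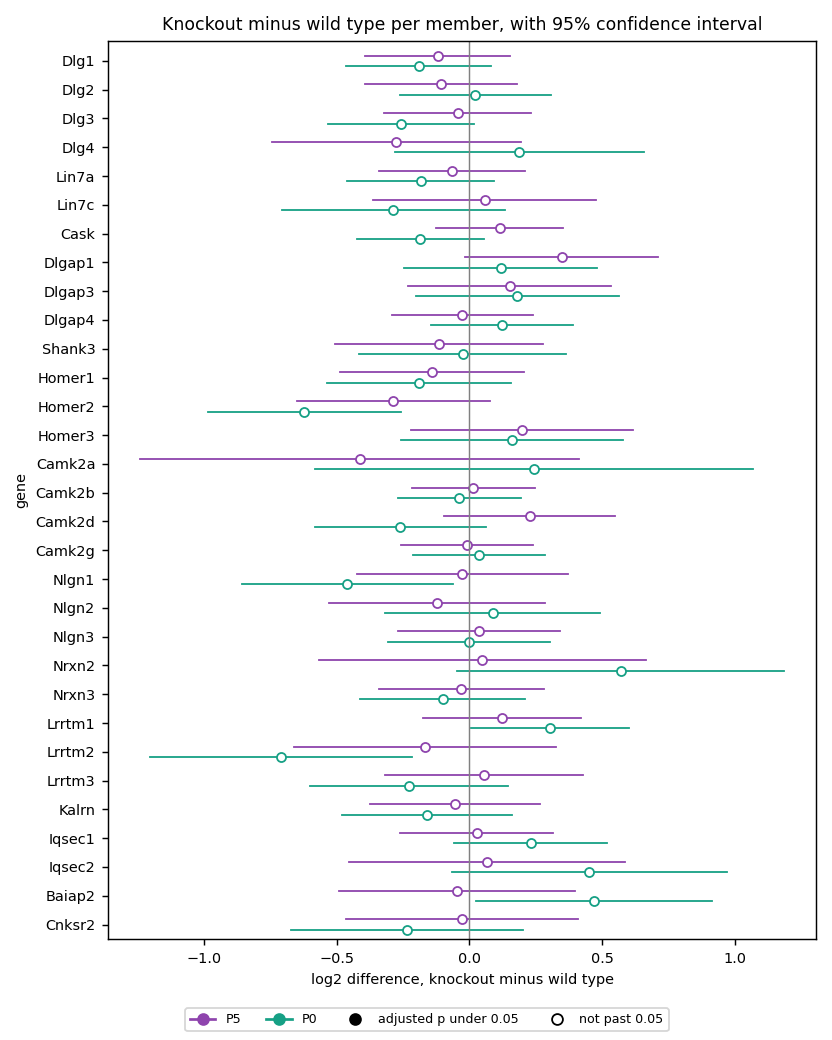
Difference in log2 level between KO and WT for the 31 tested genes at P5 and at P0, with 95% confidence intervals, grouped by role. No gene passed an adjusted p of 0.05 at either age, and 5 intervals at P0 lie wholly off 0, below it for Homer2 (-0.62), Lrrtm2 (-0.71) and Nlgn1 (-0.46) and above it for Lrrtm1 (0.30) and Baiap2 (0.47).

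The P0 genotype counts turned on P0 WT sample 2. Without it, 7 of the 31 genes passed at P0 (background 21.4%): Lrrtm2 -0.87, Nlgn1 -0.57, Lin7c -0.54, Camk2d -0.47 and Homer2 -0.43 were lower in KO, and Nrxn2 0.89 and Lrrtm1 0.43 were higher. The share of all genes passing rose with it. Homer2 then passed in the average over ages, at -0.36 (adjusted p = 0.0438), and Camk2d in the interaction, at 0.69 (adjusted p = 0.0374). Without P0 WT samples 1 and 2, 0 of 31 passed at P0 (background 4.53%). In WT, the age comparison gave 10 of 31 without P0 WT sample 2 (background 38.3%) and 7 of 31 without samples 1 and 2 (background 24.2%). Lin7c, Homer2, Camk2d, Nlgn3, Kalrn, Camk2a and Nrxn2 passed in both of these fits, and Dlg3, Nlgn1 and Lrrtm3 in the first.

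Other cell types differed between the same groups, and their part in the results above was not tested. Between the ages, all 4 measured oligodendrocyte markers rose in both genotypes, with summed signals of 171575 to 213209 in P5 KO, against 35451 to 58396 in P0 KO, and 198189 to 216259 in P5 WT, against 39682 to 59159 in P0 WT. Of 5 astrocyte markers, 4 rose in KO and 3 in WT, with sums of 169781 to 179898 in P5 KO, against 96853 to 98992 in P0 KO, and 156963 to 167081 in P5 WT, against 98936 to 105466 in P0 WT. Of 5 neuron markers 1 fell in KO and 2 in WT, and the sums were 146734 to 159963 in P5 KO, against 187017 to 193670 in P0 KO, and 156577 to 161772 in P5 WT, against 165772 to 211614 in P0 WT. In KO all 5 differences were below 0. In WT the neuron markers were mixed: Tubb3 and Syt1 fell, and Snap25 was at -0.29 without passing. Rbfox3 was at 0.47 in WT (limma, adjusted p = 0.0828), and mean Eno2 signal was 17492 in P5 WT and 16108 in P0 WT. Of 6 Hox genes 3 fell in each genotype, with sums of 14502 to 18214 in P5 KO, against 26747 to 38168 in P0 KO, and 19081 to 20043 in P5 WT, against 24270 to 46103 in P0 WT. Of 3 markers of dividing and neural progenitor cells, Mki67 rose 4.44-fold in both genotypes and Sox2 and Nes did not pass, with sums of 26207 to 28443 in P5 KO, against 13695 to 18165 in P0 KO, and 25326 to 27163 in P5 WT, against 13172 to 16612 in P0 WT. Of 3 immature neuron markers, Dcx alone passed, and it fell 3.1-fold in WT. Their sums were 134810.0 to 191660.0 in P5 KO, against 172908 to 235415 in P0 KO, and 127279 to 180253 in P5 WT, against 186403 to 218944 in P0 WT. Between genotypes at P0, the 5 markers of meninges and fibroblasts summed to 111489 to 140469 in KO, against 52177 to 77134 in WT, with none of the 5 past the test and none at 0. The same markers summed to 133315 to 147941 in P5 KO and 129882 to 148049 in P5 WT, and between the ages 1 rose in KO and 3 in WT. The 3 red blood cell genes summed to 4068 to 6444 in P5 KO, against 2792 to 4536 in P5 WT, and to 2689 to 4009 in P0 KO, against 963 to 1858 in P0 WT, with none of the 2 tested past the test between genotypes. The 5 microglia markers summed to 25532 to 27947 in P5 KO, against 21246 to 21995 in P5 WT, and to 18328 to 21828 in P0 KO, against 12382 to 17895 in P0 WT, also with none past the test between genotypes. Between the ages, 1 microglia marker rose in KO and 3 in WT. Of the red blood cell genes, Alas2 alone passed between the ages, with a 3.68-fold rise in WT. Of 3 endothelium markers, Cldn5 alone passed between the ages, at 0.42 in KO and 0.87 in WT. Pecam1 and Flt1 were above 0 in both genotypes.

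Further genes of the same compartments were counted from lists beyond the 35. Of 28 other postsynaptic density genes tested (36 listed), 3 rose and 1 fell at P5 relative to P0 in KO (background 10.5% called), and 2 rose and 4 fell in WT (background 19.3%), shares near those of all genes. By smallest p in WT these were Arhgef7, an exchange factor for Rac and Cdc42, Tanc2 and Tanc1, scaffolds that bind MAGUKs, and Nrgn, neurogranin, which binds calmodulin. Arhgef7 fell by 0.96 (SE 0.16) and Tanc2 by 0.74 (SE 0.16) in WT, while Nrgn rose by 1.26 (SE 0.28) and Tanc1 by 0.80 (SE 0.20). Nrgn (1.01) and Tanc1 (0.74) also rose in KO. Arhgef7 (-0.39, adjusted p = 0.151) and Tanc2 (-0.48, adjusted p = 0.0769) were below 0 in KO and did not pass (limma).

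Of 38 other synaptic adhesion genes tested (41 listed), 8 fell and 0 rose in KO (background 4.95% lower and 5.5% higher). In WT 15 fell and 1 rose (background 8.52% lower and 10.8% higher). The median difference was -0.27 in KO and -0.35 in WT, against -0.028 and 0.029 over all genes. Lrfn5, a postsynaptic leucine-rich repeat protein, fell by 0.40 (SE 0.11) in KO and by 0.68 (SE 0.11) in WT. The latrophilin gene Adgrl2 fell by 0.65 in KO and 0.98 in WT, and L1cam, an axonal adhesion molecule, by 0.55 in KO and 0.78 in WT. Adgrl3 fell by 0.75 in WT and differed by 0.023 in KO (adjusted p = 0.942). In both lists 0 genes passed in any comparison of genotypes or in the interaction. The background was 0.00794% at P5, 0.0238% at P0, 0.0238% averaged over ages and 0% for the interaction.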

How the data were processed

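Total RNA of 12 samples, 3 per group, had been hybridised to Affymetrix arrays. The authors deposited 1 signal per probe set, an intensity on a linear scale, and no source used here names the software. From the deposited values, the mean after trimming 2% at each end was 2500.01 on every array, so each array had been scaled by 1 factor. Genes were named from the platform annotation: 34945 probe sets had 1 symbol, 932 several and 9160 none, and 64 control probe sets were left out.

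Signals were transformed as log2(signal + 16) and quantile-normalized. Probe sets under the 40th percentile of mean level (8.72) were not tested. A model with 1 mean per group was fitted to 12600 genes across the 12 arrays (limma 3.58.1, R 4.3.3, empirical Bayes with an intensity trend), and p-values were adjusted by Benjamini-Hochberg over all genes in each of 6 comparisons, with a threshold of 0.05. Differences are in log2 and understate changes of dim genes. The number of arrays limits the precision. The genes, lists and tests were chosen with earlier results of these data known. Genes with values in every sample were, in each role, the 4 with the smallest p between the ages in WT, and for genotype those with the smallest p. All 35 members may be named, and of the other lists the 4 genes with the smallest p between ages in WT; probe sets and members named under an alternative were chosen after their values were seen.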

Additional observations from a re-analysis of the deposited data

How the results depend on the processing

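The numbers of the 31 genes passing moved with several choices. Leaving out 1 sample gave 1 to 5 between P5 and P0 in KO (5.18% to 15.6% of all genes), 1 to 10 in WT (9.54% to 38.3%), 0 to 7 between genotypes at P0 (0.00793% to 21.4%), 0 to 1 averaged over ages (0.00792% to 5.96%) and 0 to 1 for the interaction (0% to 1.67%). Array weights gave 18 in WT between the ages, 9 between genotypes at P0, 5 averaged over ages and 3 for the interaction, with 47.7%, 24.5%, 16.2% and 12.1% of all genes passing. The mean over all probe sets of a gene gave 1 in KO and 1 in WT (8.65% and 15% of all genes), no intensity trend gave 3 in KO (9.57%), and fitting only the groups compared gave 2 in WT (10.4%). The cause of these shifts was not tested. Dlgap1 averaged over ages turned to -0.045 with the mean over probe sets. Deviations of same-numbered samples correlated at 0.41, 0.38 and 0.028 between P0 KO and P0 WT, and at -0.13 to 0.16 in the other pairs of groups. The main model did not use the numbers to pair the samples. In P0 KO and P0 WT, 4 of 6 samples correlated best with their own number, and same-numbered samples also matched in high Xist (1 and 2) or high Eif2s3y (3). The P0 genotype test ignored any such pairing. A block by number assumes the same number effect at P5, where same-numbered KO and WT samples correlated at -0.13 to -0.11. The block therefore does not test a pairing at P0 alone. With the replicate number as a block, the counts were 5 in KO, 6 in WT, and 0 in each genotype comparison and in the interaction. Deposited scaling in place of quantile normalization gave 5 in KO and 5 in WT, and moved the median of all genes by under 0.1. For the block and for deposited scaling the shares of all genes are not given here. Those counts therefore cannot be read against a background. In 12 fits with a sample left out and 11 with another choice, Homer2 in KO passed in all, and Kalrn in WT in 12 and 10. Homer2 in WT passed in 6 of the 12, and its difference was as low as 0.17 under another choice. Apart from the mean over probe sets, these fits read 1 probe set per gene. The bright Homer2 probe set 1457671_at gave 0.14 in KO (limma over all probe sets, adjusted p = 0.718). At P5 between genotypes the count stayed at 0 in all of the 12 and 11 fits. With 3 arrays per group, differences near their standard error could not be told from 0.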

Other observations

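RefSeq promoter windows were found for 26 of the genes, 45 windows in all. Their median G and C content was 57.6% with 11 CpG dinucleotides, against 52.4% and 6 over all 32851 windows of GRCm38.p6. The GC box GGGCGG, read on both strands, was in 19 of the 45 (42.22%, against 32.74% of all windows), the E-box CACGTG in 3 (6.67%, against 6.02%) and the cAMP response element TGACGTCA in 0 (against 1.55%). Windows of a gene can overlap, and no test was made.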
